A study of Mus musculus with 16 samples.

Results

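The circadian clock and output genes examined here are Ciart, Per1, Per2, Per3, Cry1, Nr1d1, Nr1d2, Dbp, Tef and Clock, 10 of 19938 genes measured, and they were chosen by measured values, around Ciart, whose interaction of genotype and lymph node was high. Each gene was read from its brightest probe set, on the scale log2(intensity + 1), and all 10 had one. Expression was measured on arrays in cDC1, conventional dendritic cells of type 1 that take up dead cells and present their antigens to CD8 T cells, sorted from C57BL/6 mice 6 days after a regressor tumour, a kind that is later rejected, was injected into the back flank. The 4 groups were WDFY4 KO cDC1 from the inguinal node that drains the tumour, WDFY4 Het cDC1 from that node, KO cDC1 from the non-draining node and Het cDC1 from the non-draining node, with 4 arrays each and 16 in all. The labels call cells of the draining node activated and those of the non-draining node unactivated. WDFY4 is required in cDC1 for cross-presentation of cell-associated antigen. The controls were heterozygous and not wild type, and every mouse had been injected with tumour cells. The labels state neither the form of the Wdfy4 allele, nor the time of day of harvest, nor that each array was a separate mouse, so p-values measure only the spread between these samples.

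The mammalian clock is a transcription loop. CLOCK and its partner BMAL1 (gene Arntl) bind E-boxes and switch on Per, Cry, Nr1d and Ciart genes. PER and CRY proteins, and CIART (also called CHRONO), then repress CLOCK and BMAL1, while the nuclear receptors REV-ERB alpha and beta (genes Nr1d1 and Nr1d2) repress Arntl. DBP and TEF are output factors that bind D-boxes, which NFIL3 binds too as a repressor. Per1 is also an acutely induced gene that glucocorticoid and cyclic AMP signals switch on. In cDC1 NFIL3 is known besides as a factor needed for their development.

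The number of arrays sets the precision. The medians of the arrays lay between 38.6 and 40.8 in intensity. Wdfy4 itself lay between 1786 and 2785 in KO and between 2463 and 3450.0 in Het arrays of the draining node, and between 1923 and 3165 in KO and between 2278 and 3332 in Het arrays of the non-draining node. Where its probes lie relative to the mutation was not known, so they do not check the genotype labels. The cDC1 markers were all measured, 15 of 15, with Xcr1 between 1240 and 2495 and Clec9a between 1031 and 1778 in intensity. RMA values have no true 0, the lowest in the table being 3.33, and the T cell marker Cd3g lay between 155 and 889. In limma 0 of the 10 clock genes reached an adjusted p under 0.05 in the comparisons tested, against a background of 0% of all genes in each. The arrays numbered 1 and 2 stood apart from those numbered 3 and 4 within the groups, and values within each of these sets are given beside the results they touch.

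The sequences describe what these genes share. The measured values that chose Ciart did not use them. The genes were, however, grouped as clock and output genes, which are known in part through the E-boxes and D-boxes described above. The matches are therefore a description and no separate finding. RefSeq promoter windows, from 250 bases before to 50 bases after an annotated start on GRCm38.p6, matched 9 of the 10 genes, with 13 windows. The E-box CACGTG, which reads alike on both strands, was present in windows of 4 of these genes, Ciart, Per1, Cry1 and Tef, against 7.15% of all 32851 windows and 8.09% of all genes with a window. The Ciart window held 3 of them, with first bases at -116, -58 and -44 relative to the start. The D-box TTATGTAA, searched on both strands, was present in the Per3 window, at 2 positions, -205 and -158. It was in 0.938% of all windows and 1.11% of all genes with a window. The D-box form TTACGTAA and the cyclic AMP element TGACGTCA were in no window of these genes, and 0.119% and 1.79% of all windows held them. The motif AGGTCA, which REV-ERB and ROR receptors read within a longer site, was in windows of Per1, Nr1d2 and Clock. It was in 16.3% of all windows and 18.1% of all genes with a window. The E-box variant CACGTT was in windows of Cry1 and Nr1d1, against 4.68% of windows and 5.44% of genes. These are letter matches and not measured binding sites. The 250 bases before the start are shown 5′ to 3′ for the genes with an E-box or a D-box, so that the position of each motif relative to the start can be seen; the capitals mark the E-boxes in Ciart, Per1, Cry1 and Tef and the D-boxes in Per3. They lie at chr3:95882229-95882478, minus strand for Ciart, chr11:69098699-69098948, plus strand for Per1, chr10:85185055-85185304, minus strand for Cry1, chr15:81802423-81802672, plus strand for Tef and chr4:151044666-151044915, minus strand for Per3.
Ciart: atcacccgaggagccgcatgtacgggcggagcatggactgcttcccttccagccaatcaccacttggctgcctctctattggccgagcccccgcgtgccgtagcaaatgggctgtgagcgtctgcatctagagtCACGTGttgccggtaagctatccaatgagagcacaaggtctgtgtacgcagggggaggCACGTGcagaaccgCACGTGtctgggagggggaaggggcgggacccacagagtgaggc
Per1: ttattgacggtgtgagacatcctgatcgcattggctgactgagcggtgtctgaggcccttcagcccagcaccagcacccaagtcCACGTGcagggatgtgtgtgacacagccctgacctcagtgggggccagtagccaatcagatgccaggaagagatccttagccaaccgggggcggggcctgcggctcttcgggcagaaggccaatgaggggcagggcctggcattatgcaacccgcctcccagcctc
Cry1: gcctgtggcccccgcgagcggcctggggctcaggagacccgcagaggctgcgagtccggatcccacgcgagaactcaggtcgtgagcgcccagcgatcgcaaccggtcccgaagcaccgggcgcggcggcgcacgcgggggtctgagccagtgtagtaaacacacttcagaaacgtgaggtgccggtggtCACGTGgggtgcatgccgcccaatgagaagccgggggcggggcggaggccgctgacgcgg
Tef: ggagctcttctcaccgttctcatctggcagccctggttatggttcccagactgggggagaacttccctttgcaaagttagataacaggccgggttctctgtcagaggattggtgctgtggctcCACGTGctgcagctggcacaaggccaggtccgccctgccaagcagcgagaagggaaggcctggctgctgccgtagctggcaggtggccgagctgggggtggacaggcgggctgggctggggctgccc
Per3: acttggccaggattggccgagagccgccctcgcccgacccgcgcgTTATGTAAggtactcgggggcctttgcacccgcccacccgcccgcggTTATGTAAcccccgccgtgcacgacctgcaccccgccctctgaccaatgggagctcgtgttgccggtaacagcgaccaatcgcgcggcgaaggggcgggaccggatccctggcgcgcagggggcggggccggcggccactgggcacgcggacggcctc

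Ciart, whose protein represses CLOCK and BMAL1 and whose promoter carries the 3 E-boxes above, was higher in KO than in Het cells of the draining node and lower in KO than in Het cells of the non-draining node. Its log2 values were 5.62, 5.85, 5.51 and 5.34 in KO and 5.38, 5.10, 5.41 and 4.74 in Het arrays of the draining node. Across non-draining nodes they were 4.53, 4.99, 5.22 and 4.84 in KO and 5.65, 5.83, 4.92 and 5.81 in Het arrays. All KO draining arrays were above all KO non-draining arrays, while the other groups overlapped. KO minus Het was 0.42 ± 0.20 (SE) in the draining node and -0.66 ± 0.20 in the non-draining node, and draining minus non-draining was 0.68 ± 0.20 in KO and -0.39 ± 0.20 in Het cells. Their difference, the interaction, was 1.08 ± 0.29, and 0.0401% of all genes had one at least as large in size. These values chose the gene and are given with no test. Among the 10 clock genes KO draining against KO non-draining was the one comparison and Ciart the one gene without overlap, against 0.848% of all genes higher and 0.592% lower there. In the other comparisons the background of groups apart was 0.838% higher and 0.747% lower between draining KO and Het cells, 1.2% and 1.19% between non-draining KO and Het cells, and 1.4% and 0.998% for the nodes in Het cells. In linear units Ciart averaged 47.2 ± 7.18 in KO draining, 35.3 ± 7.37 in Het draining, 29.2 ± 5.91 in KO non-draining and 47.3 ± 12.4 in Het non-draining arrays (SD, n = 4 each). Its probe set was dim, with a mean of 39.8 over all arrays where the median gene had 46.8.

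A second, dimmer Ciart probe set did not show this pattern at that size. Its log2 values were 4.92, 5.38, 5.26 and 5.07 in KO and 5.70, 4.66, 4.84 and 4.91 in Het arrays of the draining node, and 4.93, 4.88, 4.54 and 5.24 in KO and 4.71, 5.30, 5.12 and 4.60 in Het arrays of the non-draining node. All its groups overlapped. Its KO minus Het difference was 0.13 among draining and -0.04 among non-draining arrays, and its interaction was 0.16, against 1.08 for the brighter probe set. With the mean of both probe sets the interaction was 0.62. In the brighter probe set arrays 1 and 2 alone gave 1.47 and arrays 3 and 4 alone 0.68, and the value lay between 0.94 and 1.29 without any single array.

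**Figure D1:**
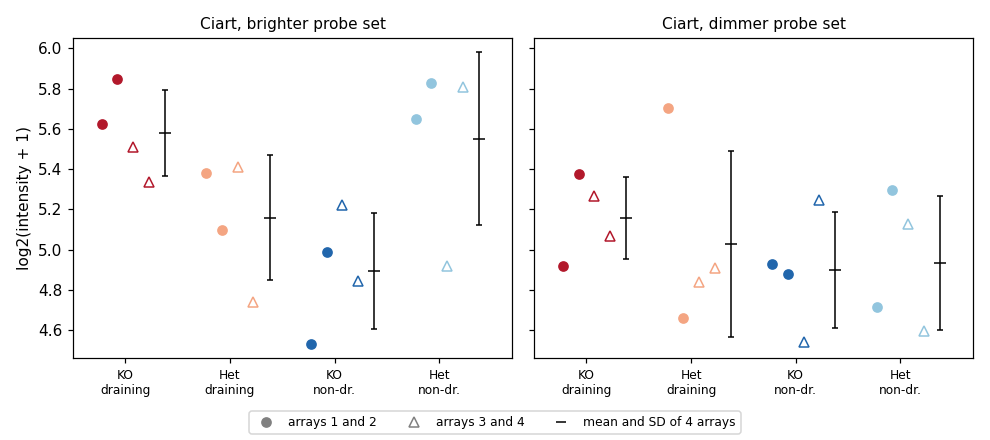
Ciart on the log2(intensity + 1) scale for each array in the 4 groups, with the brighter probe set on the left and the dimmer one on the right. Filled circles are arrays 1 and 2, open triangles arrays 3 and 4, and bars the mean and SD of 4 arrays. The KO draining arrays lie above the KO non-draining arrays in the brighter probe set, whose interaction was 1.08, and overlap them in the dimmer one, whose interaction was 0.16.

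T cell markers had the same order of signs across the groups as the brighter Ciart probe set. Of 13 listed markers 11 were measured, and their summed intensity was between 1284 and 2652 in KO and between 1114 and 2118 in Het arrays of the draining node. Across non-draining nodes it was between 876 and 2290.2 in KO and between 1344.5 and 2457 in Het arrays. All 11 had an interaction above 0, with a median of 0.69, and their median KO minus Het difference was 0.27 for draining and -0.38 for non-draining nodes. The cDC1 markers had an interaction below 0 for 12 of 15, with a median of -0.22. Over all genes the median interaction was -0.01, and the share of all genes on either side of 0 was not counted. At an unadjusted p under 0.05 for the interaction in limma there were 1 of the T cell and 0 of the cDC1 markers. Among all genes 2.32% were under it. The part of these markers in the Ciart values was not tested. In a sorted population fewer cells of a type and less RNA per cell cannot be told apart.

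On the mean of both nodes, a comparison that the choice of Ciart did not use, no difference of Ciart passed the test. It averaged 5.24 in KO and 5.35 in Het arrays, a difference of -0.12 ± 0.14 (adjusted p of 1.00 in limma). On the mean of both genotypes it averaged 5.37 in draining and 5.22 in non-draining arrays, a difference of 0.15 ± 0.14 (adjusted p of 0.998 in limma).

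The Per genes encode the PERIOD repressors, and Per1 had the smallest p among the clock genes on the mean of both nodes. Its log2 values were 8.69, 9.09, 8.92 and 8.86 in KO and 8.44, 8.77, 8.62 and 8.50 in Het arrays of the draining node. Across non-draining nodes they were 8.82, 9.49, 8.86 and 8.90 in KO and 9.08, 8.98, 8.67 and 8.81 in Het arrays. The Het draining arrays had the lowest mean. They overlapped with KO draining and Het non-draining arrays and lay below all KO non-draining arrays, from which they differ in both genotype and node. The share of all genes apart in that way was not counted. KO minus Het was 0.31 ± 0.14 among draining arrays, 0.14 ± 0.14 among non-draining arrays and 0.22 ± 0.10 on their mean, with unadjusted p of 0.0479, 0.36 and 0.0443 and adjusted p of 1.00 in limma each. At an unadjusted p under 0.05 there were 3.39% of all genes among draining arrays, 2.48% among non-draining arrays and 3.49% on the mean. Draining minus non-draining was -0.13 ± 0.14 in KO and -0.30 ± 0.14 in Het cells and -0.21 ± 0.10 on their mean (unadjusted p of 0.0502, adjusted p of 0.998 in limma for the mean). The node difference on the mean came to -0.34 from arrays 1 and 2 alone and to -0.09 from arrays 3 and 4 alone, while these sets gave 0.28 and 0.33 for KO minus Het among draining arrays. Without KO non-draining array 2 the non-draining genotype difference was -0.02.

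A list of immediate early genes, which cells switch on within minutes of a stimulus, and of heat shock genes had KO minus Het differences mostly of the same sign as Per1. Of 23 listed 22 were measured, and 21 of them had a KO minus Het difference above 0 in the draining node (median 0.32) and 21 in the non-draining node (median 0.27), against medians of 0.00 over all genes. In limma 0 of them passed in either node and 10 and 9 had an unadjusted p under 0.05, led in both by the heat shock chaperone gene Hsph1 (0.56 ± 0.17 and 1.00 ± 0.17) and Jun (0.43 ± 0.14 and 0.57 ± 0.14). Between nodes the list had medians of -0.05 in KO and -0.03 in Het cells, and its leading genes had the opposite sign to Per1, with Jun at 0.33 ± 0.10 on the mean of both genotypes and Hsph1 at 0.38 ± 0.17 in Het cells. B cell markers, 11 of 12 measured, were also higher in KO on the mean of both nodes for 10 of 11, with a median of 0.36. Of these markers 6 had an unadjusted p under 0.05 in limma, against 3.49% of all genes. Their median was 0.13 between draining and 0.46 between non-draining KO and Het cells, where 9 and 11 of 11 were higher. Their summed intensity was between 629 and 765 in KO and between 505 and 905 in Het draining arrays, and between 656 and 1028.5 in KO and between 483 and 871 in Het non-draining arrays. Glucocorticoid-responsive genes, 13 of 13 measured, had a median KO minus Het difference of 0.04 for draining and -0.07 for non-draining nodes, with 0 passing in limma and 0 at an unadjusted p under 0.05. The part of these lists in the Per1 values was not tested.

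Per2 and Per3 had smaller differences between genotypes in the draining node than Per1. Per2 averaged 6.01 ± 0.11 in KO and 5.95 ± 0.06 in Het arrays of the draining node, and 5.88 ± 0.09 in KO and 6.03 ± 0.20 in Het arrays of the non-draining node (SD, n = 4 each). Its KO minus Het differences were 0.06 ± 0.10 and -0.15 ± 0.10. One Het non-draining array, number 1, was high at 6.32, and without it the non-draining difference was -0.05. Per3 averaged 5.54 ± 0.10 in KO and 5.51 ± 0.18 in Het arrays of the draining node, and 5.47 ± 0.17 in KO and 5.57 ± 0.19 in Het arrays of the non-draining node. Its differences were 0.03 ± 0.12 and -0.10 ± 0.12, all within the spread of the arrays.

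Cry1, a cryptochrome gene of the same repressor complex, had wide groups. It averaged 6.54 ± 0.19 in KO and 6.40 ± 0.36 in Het arrays of the draining node and 6.36 ± 0.22 in KO and 6.37 ± 0.26 in Het arrays of the non-draining node. Its Het draining values ran between 6.06 and 6.90, and no comparison of its groups had a difference over 0.18 in size.

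The REV-ERB genes had differences of opposite sign in the draining node. Nr1d2 had intensities, in linear units, of 131, 126, 140.0 and 129 in KO and 101, 92.7, 128 and 127 in Het arrays of the draining node, and 122, 128, 149.6 and 125 in KO and 131, 118, 127 and 145 in Het arrays of the non-draining node. Het draining arrays 1 and 2 were below every other array, and Het draining arrays 3 and 4 lay with the rest. On the log2 scale KO minus Het was 0.24 ± 0.11 in the draining node (unadjusted p of 0.0416, adjusted p of 1.00 in limma) and 0.01 ± 0.11 in the non-draining node. In the draining node this came to 0.41 within arrays 1 and 2 and to 0.08 within arrays 3 and 4. Nr1d1 averaged 5.57 ± 0.15 in KO and 5.72 ± 0.15 in Het arrays of the draining node, a difference of -0.15 ± 0.12, and 5.67 ± 0.24 in KO and 5.64 ± 0.09 in Het arrays of the non-draining node, a difference of 0.03 ± 0.12.

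Dbp and Tef encode the D-box activators of clock output. Tef, with an E-box in its window, had log2 values of 7.04, 6.63, 6.61 and 6.81 in KO draining arrays against 6.40, 6.29, 6.70 and 6.67 in KO non-draining arrays, a difference of 0.26 ± 0.13 (unadjusted p of 0.0639, adjusted p of 1.00 in limma). These groups overlapped, and arrays 1 and 2 alone gave 0.49 and arrays 3 and 4 alone 0.02. In Het cells Tef was 6.62, 6.42, 6.68 and 6.63 in draining and 6.60, 6.31, 6.75 and 6.81 in non-draining arrays, a difference of -0.03 ± 0.13. Dbp was 6.33, 6.28, 6.35 and 6.60 in KO and 6.11, 5.97, 6.48 and 6.58 in Het arrays of the draining node, a difference of 0.10 ± 0.15. In the non-draining node Dbp was 6.29, 6.01, 6.30 and 6.53 in KO and 6.09, 6.32, 6.62 and 6.53 in Het arrays, a difference of -0.11 ± 0.15. The lower Dbp values were those of arrays 1 and 2 in each group.

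Clock, the activator gene, had small differences between genotypes. It averaged 6.97 ± 0.22 in KO and 7.01 ± 0.17 in Het arrays of the draining node and 6.91 ± 0.16 in KO and 6.89 ± 0.12 in Het arrays of the non-draining node, and its KO minus Het differences were -0.04 ± 0.12 and 0.02 ± 0.12. KO draining array 1 was high at 7.30, and the other KO draining arrays lay between 6.83 and 6.89.

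**Figure D2:**
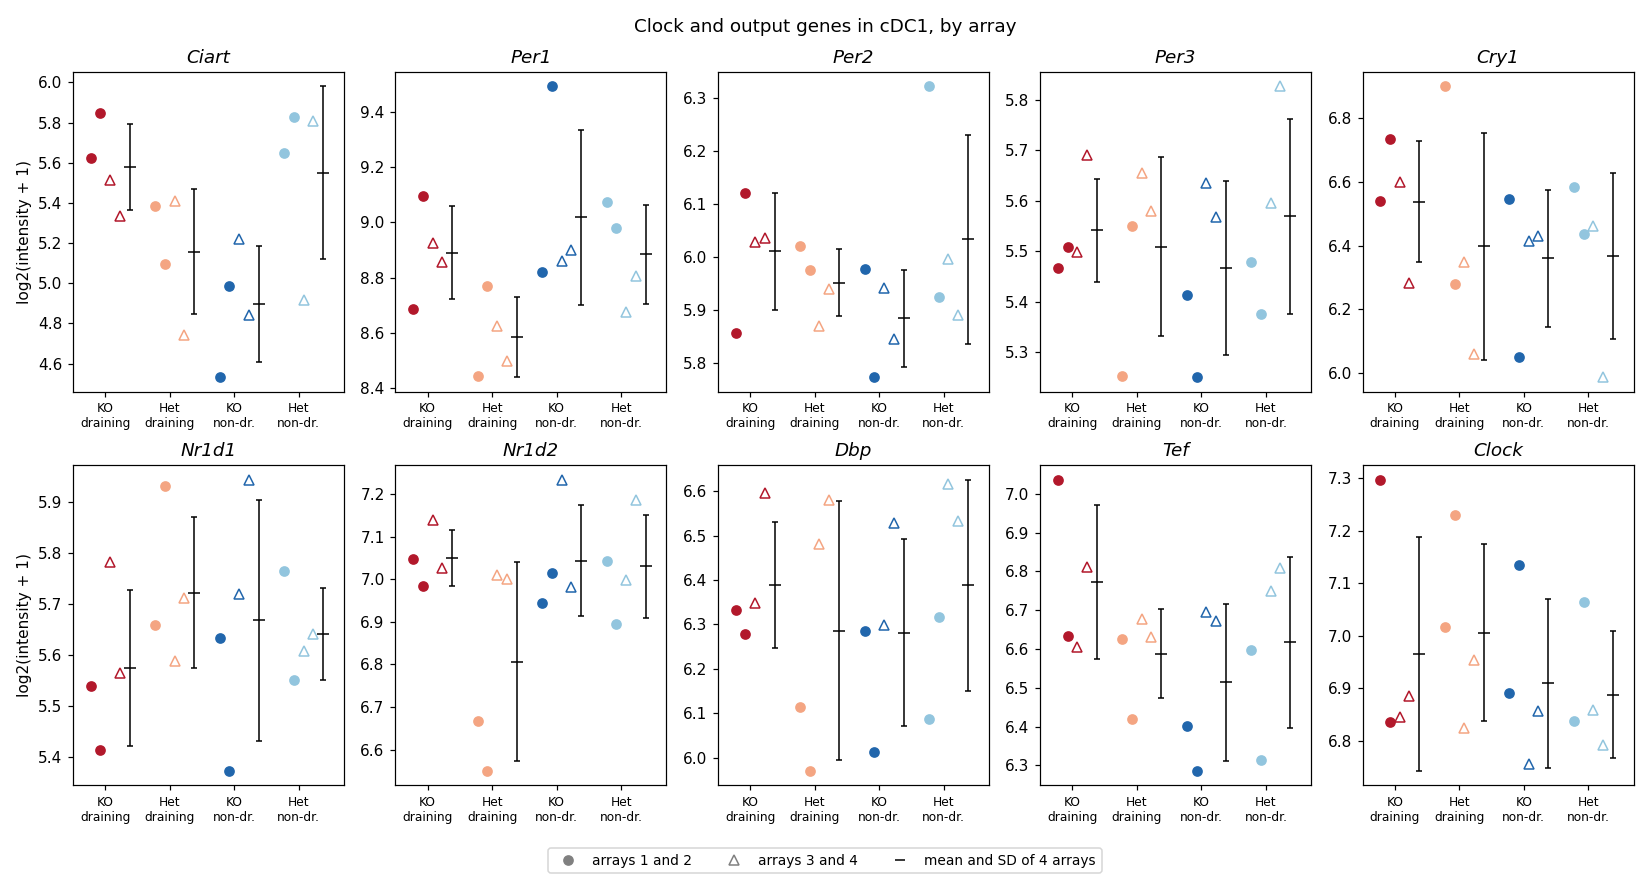
log2(intensity + 1) of the 10 clock and output genes for each array in KO draining, Het draining, KO non-draining and Het non-draining cDC1, with a separate vertical scale per gene. Filled circles are arrays 1 and 2, open triangles arrays 3 and 4, and bars the mean and SD of 4 arrays. Groups that differ in genotype alone or in node alone overlap, except KO draining and KO non-draining arrays of Ciart, and in Dbp the triangles lie above the circles within each group.

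As a set, the 10 genes had a median KO minus Het difference of 0.12 in the draining node, with 8 higher and 2 lower, and of -0.05 in the non-draining node, with 4 higher and 6 lower. The medians over all genes were -0.00 and 0.00. Draining minus non-draining had a median of 0.09 in KO cells, with 8 higher, and of -0.07 in Het cells, with 3 higher, against 0.00 and 0.01 over all genes. These 4 comparisons share groups and compose the interaction that chose Ciart, so their opposite signs are not separate observations. At an unadjusted p under 0.05 there were, among the other 9 genes, 2 between draining KO and Het cells, Per1 and Nr1d2, against 3.39% of all genes. There were 0 between non-draining KO and Het cells, against 2.48%, 0 between nodes of Het cells, against 3.29%, and 0 between nodes of KO cells, against 2.11%. The replicate number was also fitted as a fixed block over all 4 groups. The shares of all genes given here are from the fit without the block, and those with it are not given. Between nodes of Het cells Per1 and Nr1d2 had an unadjusted p of 0.0196 and 0.0339 in limma with the block. The adjusted p was 1.00 for each. The interaction was above 0 for 8 of 10 genes, all but Nr1d1 (-0.17 ± 0.17) and Clock (-0.06 ± 0.17). Its median was 0.19, against -0.01 over all genes, and the share of all genes above 0 was not counted. Beside Ciart it was widest in Tef (0.29 ± 0.18), Nr1d2 (0.23 ± 0.16), Dbp (0.21 ± 0.21) and Per2 (0.21 ± 0.14). No test is given for the interaction of these genes. Over all genes 2.32% had an unadjusted p under 0.05 for it in limma, which is not a share of signs. On the means of both nodes and of both genotypes the medians were -0.01 and 0.01, against 0.00 and 0.01 over all genes. In limma 0 of the 10 passed on either mean; at an unadjusted p under 0.05 there was 1 of 10 (Per1) on the genotype mean, against 3.49% of all genes, and 0 of 10 on the node mean, against 3.06%.

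**Figure D3:**
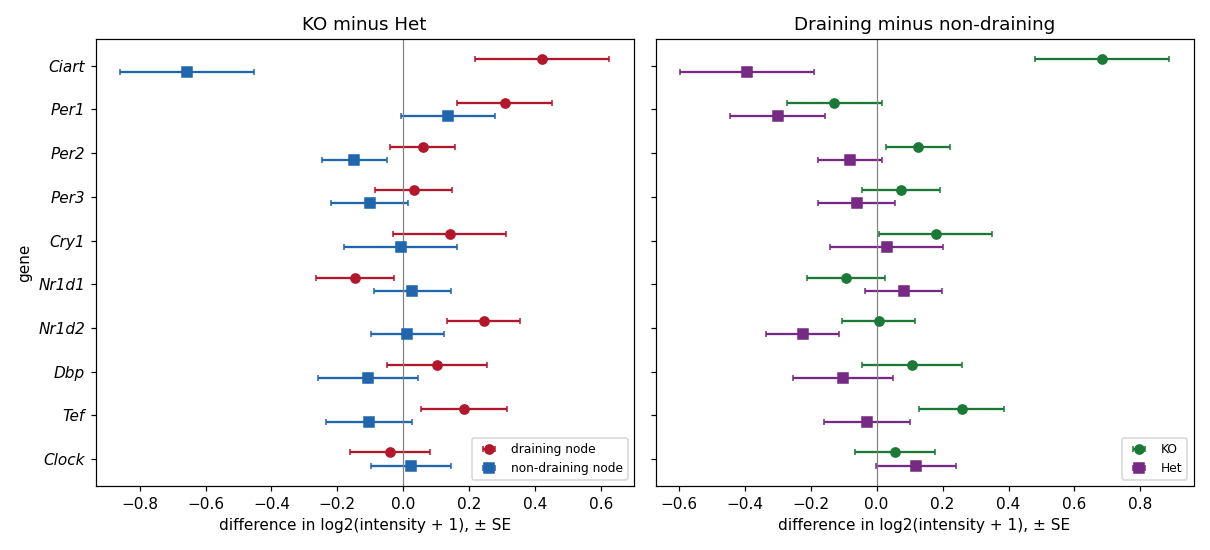
Differences in log2(intensity + 1) with their standard errors from limma for the 10 genes, KO minus Het in each node on the left and draining minus non-draining in each genotype on the right. The Ciart points lie farthest from 0, at 0.42 and -0.66 on the left and 0.68 and -0.39 on the right, and chose the gene; the others lie between -0.30 and 0.31.

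Several of these genes also had differences between arrays of the same group. Arrays numbered 3 and 4 were compared with arrays numbered 1 and 2 with the group in the model; the labels do not say what the numbers stand for, the division was known from earlier results of these data, and the values are a description with no test. Dbp averaged 6.50 ± 0.12 in arrays 3 and 4 and 6.17 ± 0.15 in arrays 1 and 2 (SD, n = 8 each), a difference of 0.32 ± 0.07 (SE) that was above 0 in each group, at 0.17 in KO draining, 0.49 in Het draining, 0.26 in KO non-draining and 0.37 in Het non-draining arrays. Of the 8 arrays numbered 3 and 4, 7 were above every array numbered 1 or 2. Per3, whose window holds the D-boxes, was higher by 0.22 ± 0.06 and Nr1d2 by 0.18 ± 0.06, both in all 4 groups. Tef was higher by 0.17 ± 0.08 in 3 groups and lower in KO draining arrays (-0.13).

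Arntl and Clock, which encode the activator pair, were lower in arrays 3 and 4 in all 4 groups, Arntl by -0.31 ± 0.08 and Clock by -0.19 ± 0.07. For Arntl the group differences ran between -0.68 in KO draining and -0.08 in KO non-draining arrays. Per1 was lower in all 4 groups as well, by -0.15 ± 0.10, while Ciart (-0.14 ± 0.14), Cry1 (-0.19 ± 0.11), Per2 (-0.05 ± 0.07) and Nr1d1 (0.09 ± 0.08) had no common direction. So 3 of the 10 genes were higher and 2 lower in every group, against 16% and 20.9% of all genes, and the median size of the difference was 0.17, against 0.11 over all genes. Of the 23 other clock genes, 4 were higher and 6 lower in every group. The higher were Btrc (0.37), Csnk1d (0.22), Noct (0.15) and Bhlhe40 (0.09). The lower were Arntl, Nono (-0.25), Fbxw11 (-0.23), Gsk3b (-0.17), Arntl2 (-0.16) and Hlf (-0.12). Arntl is thus 1 gene of a list with both directions. The spread within groups was smaller in arrays 3 and 4 than in arrays 1 and 2 for 8 of 10 clock genes, a share near the 76% of all genes. Over the same division 9 of 11 T cell markers were higher in all 4 groups, with a median of 0.40, and 6 of 13 glucocorticoid-responsive genes were too, with a median of 0.13. Of the migratory and skin dendritic cell markers 4 of 6 were higher in all 4 groups, with a median of 0.28. Of the cDC1 markers 5 of 15 were lower and 2 higher in all 4 groups, with a median of -0.14, against -0.03 over all genes. Their part in the Dbp and Arntl values was not tested.

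**Figure D4:**
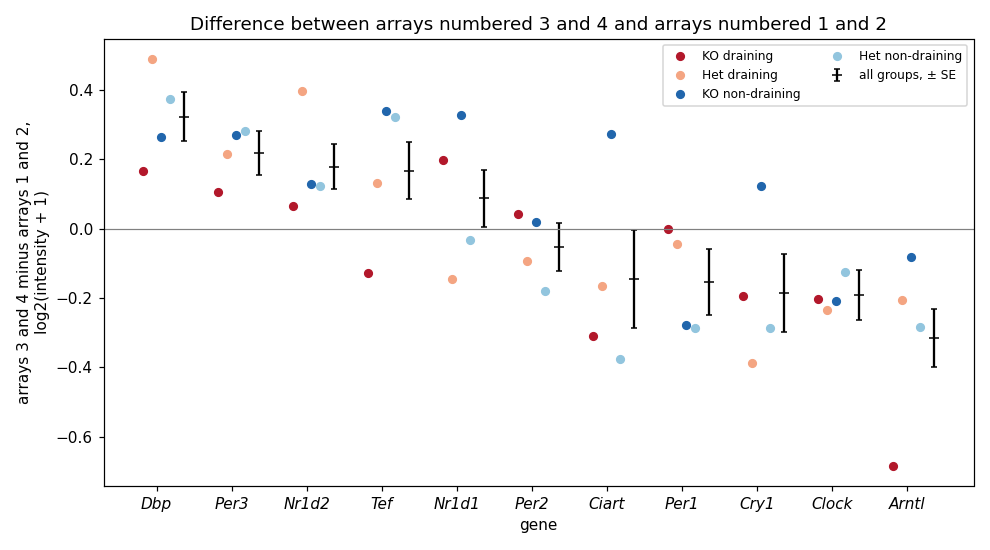
Arrays numbered 3 and 4 minus arrays numbered 1 and 2 in log2(intensity + 1), for each group as a coloured point and over all groups as a bar with its standard error, for the 10 genes and Arntl. Dbp (0.32), Per3 (0.22) and Nr1d2 (0.18) are above 0 in all 4 groups, and Per1 (-0.15), Clock (-0.19) and Arntl (-0.31) are below 0 in all 4.

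Among other clock genes, 23 of 26 listed were analysed here. In limma 0 of the 23 passed in any comparison. At an unadjusted p under 0.05 there were 2 in KO against Het on the mean of both nodes, against 3.49% of all genes. Draining against non-draining on the mean of both genotypes had 3, against 3.06%. Within single nodes or genotypes there were 2 in KO against Het in each node, 1 in draining against non-draining Het cells and 2 in KO cells. The backgrounds there were 2.11% to 3.39% of all genes. In the draining node the lower ones were Nampt, the clock-driven gene for the rate-limiting enzyme of NAD salvage, at -0.37 ± 0.13, and the cryptochrome gene Cry2 at -0.46 ± 0.17. The log2 values of Nampt were 7.09, 6.92, 7.17 and 7.22 in KO draining arrays, against 7.39, 7.78, 7.43 and 7.29 in Het draining arrays, and these groups did not overlap. Groups were apart in this direction for 0.747% of all genes. Nampt in KO draining arrays was also below all KO non-draining arrays, which read 7.66, 7.37, 7.42 and 7.54, against 0.592% of all genes apart in this direction. The difference was -0.40 ± 0.13 (adjusted p of 1.00 in limma), and the 2 comparisons share the KO draining arrays. Cry2 was 5.77, 5.30, 6.16 and 6.10 in KO draining arrays against 6.46, 5.99, 6.13 and 6.60 in Het draining arrays, so KO draining arrays 1 and 2 were its lowest.

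Rora, the gene of a receptor that activates Arntl at the sites where REV-ERB represses it, was lower in KO on the mean of both nodes by -0.33 ± 0.10 (unadjusted p of 0.0053, adjusted p of 1.00 in limma). It averaged 5.65 in KO and 5.91 in Het arrays of the draining node, where the groups did not overlap, against 0.747% of all genes apart in this direction. In the non-draining node it averaged 5.64 in KO and 6.05 in Het arrays, which overlapped. T cells also express Rora. On the same mean 8 of 11 T cell markers were lower in KO, with a median of -0.07, and their medians in each node are given above; their part was not tested. Fbxw11, an F-box gene whose protein marks PER for degradation, was lower on the same mean by -0.21 ± 0.09 and Timeless higher by 0.18 ± 0.09 (unadjusted p of 0.0356 and 0.0648).

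Nfil3, the D-box repressor, was lower in the draining node on the mean of both genotypes by -0.28 ± 0.12, as were Bhlhe40, an E-box repressor gene, by -0.24 ± 0.10 and Nampt by -0.20 ± 0.09 (unadjusted p of 0.0343, 0.0294 and 0.044, adjusted p of 0.998 in limma each). In Het cells Nfil3 was 8.93, 9.23, 9.18 and 8.60 in draining and 9.38, 9.51, 9.25 and 9.35 in non-draining arrays, which did not overlap, against 0.998% of all genes apart in this direction. In KO cells it was 8.94, 8.76, 9.47 and 9.62 in draining and 9.38, 9.19, 9.46 and 9.47 in non-draining arrays, which did. The difference was -0.39 ± 0.17 in Het and -0.18 ± 0.17 in KO cells, and Nfil3's own interaction was 0.21 ± 0.24 (adjusted p of 1.00 in limma). The interactions of smallest p among the other clock genes were those of Cry2, at -0.64 ± 0.24, and Nampt, at -0.40 ± 0.18, both opposite in sign to that of Ciart (unadjusted p of 0.0154 and 0.0409, adjusted p of 1.00 in limma each). Of the list 18 of 23 interactions were above 0, as was that of Ciart, and 5 were below. The median was 0.14, against -0.01 over all genes, and the share of all genes above 0 was not counted. Usp2, a deubiquitinase gene driven by the clock, differed between nodes by -0.43 ± 0.22 in Het cells and by -0.04 ± 0.22 in KO cells.

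Arntl, the gene of CLOCK's partner, had KO minus Het differences of 0.24 ± 0.16 in draining and -0.10 ± 0.16 in non-draining nodes, with means of 7.45 in KO and 7.21 in Het draining arrays and of 7.20 in KO and 7.30 in Het non-draining arrays. KO draining arrays 1 and 2, at 7.86 and 7.72, were the highest of the 16, and KO draining arrays 3 and 4 read 7.09 and 7.13.

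Likeness was measured as Pearson's r over the 16 arrays against the genes at or above the median signal, as a description. The 5 genes most like Ciart were Ctdp1 (r = 0.78), Rflnb (0.75), Zscan20 (0.70), Myo10 (0.70) and Sema6b (0.70) among 9496. That likeness holds the group pattern that chose Ciart. On deviations from the group means, which take the group pattern out, they were Spty2d1 (0.83), Hrh2 (0.75), Rbm33 (0.72), Med29 (0.72) and Sema6b (0.71). Sema6b stood in both lists, which come from the same arrays. Of the other 9 genes examined here, the highest r with Ciart was 0.30 for Per2, at rank 936, and Nr1d1 had -0.29. Arntl had 0.60, at rank 36, and 0.55 on deviations, at rank 97.

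The mean profile of Per3, Nr1d1, Nr1d2, Dbp and Tef, genes that peak near one another in many tissues, was most like Wtap (r = 0.92), Hlx (0.91), Clu (0.91), Ppp2r5e (0.90) and Stard7 (0.90). On deviations from group means it was most like Cirbp (0.95), a cold-inducible RNA-binding protein gene with a daily rhythm in many tissues, Cavin1 (0.95), Mgat4b (0.94), Tubb2a (0.93) and Hlx (0.93). On deviations r was -0.56 for Clock, -0.49 for Arntl, -0.60 for Per1, -0.33 for Cry1, -0.19 for Ciart and -0.16 for Per2. The arrays shared the division between numbers 1 and 2 and numbers 3 and 4 described above, so these are not 16 independent points. Over that division the genes of the profile were higher on average in arrays 3 and 4. The other clock genes examined here, and Arntl, were lower. The opposite signs are therefore not separate from that division.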

How the data were processed

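RNA of sorted cDC1 from inguinal nodes digested with collagenase B and DNase I was hybridised to Affymetrix arrays, 1 sample per array. The authors deposited 1 table of intensity values for 35556 probe sets on a linear scale, between 3.33 and 16300.1, which the submitters' processing notes say came from RMA (software: not given in the sources used here). Its quantile step gives all arrays one distribution and so hides any change common to most genes, and differences of dim probe sets come out small.

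Groups and numbers came from the sample labels. Probe sets with 1 gene symbol (21789; 1621 had several and 12146 none) were named from the platform table, and 21698 matched the GRCm38.p6 gene table by gene ID, which changed 0 symbols. The brightest probe set stood for each of 19938 genes, 999 of which had several. Values were tested as log2(intensity + 1) with limma 3.58.1 in R 4.3.3, in 1 fit of 4 groups over 16 arrays (12 residual and 4.35 prior degrees of freedom), two-sided, with Benjamini-Hochberg adjustment over all genes and a threshold of 0.05. The fit was tested on simulated data. Plots used matplotlib 3.10.9 in Python 3.11.15.

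The clock genes, the gene lists and the comparisons were chosen with earlier results of these data known. The rule named all 10 clock genes, up to 3 other clock genes of smallest p per comparison with Arntl and Nfil3, the 5 genes of highest likeness among named genes at or above the median signal, and up to 2 genes of an accompanying list; Clec9a, Xcr1 and Cd3g were named after their values were seen. Further marker lists (NK cells, cDC2, plasmacytoid and skin migratory dendritic cells, macrophages and monocytes, neutrophils, stromal and erythroid cells) had 0 genes past the threshold in limma in any comparison, as had all genes. At an unadjusted p under 0.05 each held 0 to 2 genes per comparison, against 2.11% to 3.49% of all genes, and their medians lay between -0.22 and 0.16. The labels do not say what a replicate number marks. Deviations from the group means correlated at over 0.1 in all 4 same-numbered pairs of Het draining and Het non-draining arrays. The replicate number was therefore also fitted as a block, either fixed over all 4 groups or random within each genotype. Such a block comes from the values and not from the design. Alternatives were the pseudocount, a filter on dim genes, the mean of probe sets, the replicate number or number sets as a block, a random block, within number sets, 2-group fits, a variance trend and leaving out each array.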

Additional observations from a re-analysis of the deposited data

Results flagged for a closer look

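Within the 40 groups of 4 arrays formed by the 10 clock genes, 2 held an array far from the other 3 by Dixon's test, where chance alone flags about 1 group in 20. Per1 read 9.49 in KO non-draining array 2, against 8.82 to 8.90 in the other arrays of that group, and Clock read 7.30 in KO draining array 1, against 6.83 to 6.89.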

How the results depend on the processing

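In limma no tested difference of the 10 clock genes passed the threshold under any of the 27 settings, where the smallest adjusted p was 0.32, so each kept its side of it, and the signs that turned belong to differences that did not pass. Ciart kept its interaction above 0 throughout, but that value chose the gene, so its sign is a description only. It was 1.08 in the brighter probe set and 0.16 in the dimmer one. The median interaction of the 10 genes was 0.095 within arrays 3 and 4, against 0.19 over all arrays. The count of all genes past the threshold, 0 over all arrays, was 4 for KO against Het in draining nodes, 2 in non-draining nodes, 5 over both nodes and 1 between nodes of KO cells within arrays 3 and 4. A replicate block in the fit gave 1 for KO against Het over both nodes. The labels do not say whether numbers pair the samples, and the values do not settle it: 18 of 24 same-numbered pairs had a correlation of deviations over 0.1, and the lowest was -0.06. Between the nodes of Het cells it was over 0.1 for 4 of 4 pairs (0.20 to 0.31) and between those of KO cells for 3 of 4 (-0.01 to 0.48). Differently numbered pairs between the nodes of Het cells had 0.25 and 0.07 within arrays 1 and 2. Within arrays 3 and 4 they had 0.38 and 0.15. A correlation over 0.1 was thus not particular to same-numbered pairs. The block changed no other call. For KO minus Het over both nodes, the sign turned for Clock (0.0031), Cry1 (-0.083) and Dbp (0.11) within arrays 1 and 2 and for Ciart (0.0088), Nr1d1 (0.12), Per2 (0.039) and Tef (-0.021) within arrays 3 and 4. Leaving out single arrays, it turned for Clock (-0.064 to 0.028), Dbp (-0.055 to 0.047), Per2 (-0.069 to 0.0029), Per3 (-0.078 to 0.0077) and Tef (-0.010 to 0.078). For draining minus non-draining over both genotypes, the sign turned for Dbp (-0.0020), Nr1d1 (0.055) and Per2 (-0.0050) within arrays 1 and 2 and for Cry1 (-0.00084), Per3 (-0.051) and Tef (-0.050) within arrays 3 and 4. Leaving out single arrays, it turned for Dbp (-0.048 to 0.055), Nr1d1 (-0.055 to 0.040), Per2 (-0.0013 to 0.070) and Per3 (-0.029 to 0.050). For KO minus Het in draining nodes, the sign turned for Per2 (-0.010) within arrays 1 and 2 and for Dbp (-0.059), Nr1d1 (0.023) and Per3 (-0.023) within arrays 3 and 4. Leaving out single arrays, it turned for Clock (-0.15 to 0.034), Dbp (-0.0027 to 0.20) and Per3 (-0.054 to 0.080). For KO minus Het in non-draining nodes, the sign turned for Nr1d1 (-0.15) within arrays 1 and 2 and for Clock (-0.019) and Cry1 (0.20) within arrays 3 and 4. Leaving out single arrays, it turned for Clock (-0.053 to 0.081), Cry1 (-0.13 to 0.10), Nr1d1 (-0.065 to 0.13), Nr1d2 (-0.051 to 0.065) and Per1 (-0.023 to 0.20). Between nodes of Het cells, the sign turned for Tef (0.067) within arrays 1 and 2 and for Cry1 (-0.020) within arrays 3 and 4. Leaving out single arrays, it turned for Cry1 (-0.14 to 0.14), Dbp (-0.20 to 0.0029), Per2 (-0.13 to 0.015), Per3 (-0.12 to 0.026) and Tef (-0.13 to 0.035). Between nodes of KO cells, the sign turned for Nr1d2 (-0.026), Per1 (0.0096) and Per3 (-0.0082) within arrays 3 and 4. Leaving out single arrays, it turned for Clock (-0.055 to 0.13), Nr1d2 (-0.027 to 0.070) and Per1 (-0.20 to 0.030). The cause of these turns was not tested. With 4 arrays a group, differences of dim genes such as Ciart and Per3 rest on signals near or below the median gene.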
